A study of Rattus norvegicus with 12 samples.

Results

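Neurotrophic factors are secreted proteins that keep neurons alive and shape their connections, and the 8 genes described here encode 3 of these factors and 5 of their receptors. They are Bdnf, Ntf3, Gdnf, Ntrk2, Ntrk3, Ngfr, Gfra1 and Ret. They were chosen by gene symbol from a table of raw read counts over 17337 genes, and all 8 had a row in it. The count table holds poly-A RNA sequencing of whole striatum from 12 male wild-type Sprague-Dawley rats, 1 rat per library. By the labels, every rat had 16 days of methamphetamine (MA) self-administration, in which a lever press gave an intravenous infusion. The rats of the MA12 group (n = 4) were then kept for 12 h without the drug and those of the MA24 group (n = 4) for 24 h. The labels call the remaining rats (n = 4) non-addicted, and give neither the criterion for that word nor a time of abstinence. The paper describes saline, MA, MA12 and MA24 groups and none called non-addicted. No library here is labelled as drug-naive, so by the labels every comparison is between rats that had access to MA. The paper kept its rats on a light-dark cycle and gives no hour for the sessions or the dissections. Time of day may therefore differ between MA12 and MA24 rats, and it cannot be told apart from the time of abstinence.

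Brain-derived neurotrophic factor (Bdnf) and neurotrophin-3 (Ntf3) belong to the neurotrophin family. Each binds a Trk receptor tyrosine kinase, TrkB (Ntrk2) for the former and TrkC (Ntrk3) for the latter, and the p75 receptor (Ngfr) binds all neurotrophins and their precursors. Glial cell line-derived neurotrophic factor (Gdnf) works through a separate receptor: it binds the membrane-anchored co-receptor Gfra1, and the complex then activates the kinase Ret. In the striatum, BDNF protein is known to arrive mainly along axons from the cortex, where its mRNA is made. GDNF is made within the striatum, in large part by parvalbumin interneurons, and is known for its support of midbrain dopamine neurons, the cells on whose terminals MA acts.

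Library totals ranged from 17908962 to 23850284 counts. All 12 genes of a striatal projection neuron list (Drd1, Drd2, Ppp1r1b and others) had reads in every group, and their summed level was 14291 to 18800 CPM (counts scaled to the same library total). Some libraries stood apart in regional markers. The summed CPM of 6 genes known from hypothalamus and septum was highest in non-addicted rat 11 (92.4), MA12 rat 21 (70.9), MA12 rat 31 (59.8) and non-addicted rat 12 (51.2), against 33.3 to 41.4 in the other rats. These 4 rats also ranked highest for the summed CPM of 6 thalamic markers and lowest for the striatal projection neuron list. Within the thalamic list, Prkcd had 1178, 1196, 937 and 720 reads in rats 11, 21, 31 and 12 against 291 to 523 elsewhere. Calb2 had 237 to 344 reads in them and 296 in rat 9, against 87 to 157 in the rest. Rgs16 had 52, 46, 27 and 60 reads in rats 11, 21, 31 and 12 against 14 to 35 elsewhere. Slc17a6 had 13, 8, 4 and 10 against 1 to 6, so both were highest in rats 11, 12 and 21 but not in rat 31. Tcf7l2 and Lef1 had 132 to 206 and 61 to 184 reads with no such split. The rat numbers are of 2 kinds, with and without a trailing N, and the labels do not explain the letter. All 4 MA24 rats, 2 of 4 MA12 rats and 0 of 4 non-addicted rats carry it, so this difference cannot be told apart from the group between MA24 and non-addicted rats. The sample titles name no batch. The paper states that RNA from all its groups was extracted together. That does not tell whether rats with and without the N were trained or dissected at the same time.

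RefSeq promoter windows on the rat build GRCr8 were found for 5 of the 8 members. The 250 bases before the annotated start are shown for the GDNF ligand and both of its receptor subunits, because Gfra1 was the member that passed the test and Ret, its partner in signalling, was not. A Bdnf window is added because its count pools transcripts from several starts, with 6 RefSeq windows, and the one shown is the only one of them with the half-site marked below. Capitals mark a GC box (GGGCGG or its reverse complement) in Gfra1 and a half-site of the cAMP response element (TGACG or its reverse complement) in Gdnf and Bdnf. Each line runs 5' to 3' on the gene's own strand.
Gfra1, chr1:267555812-267556061, minus strand: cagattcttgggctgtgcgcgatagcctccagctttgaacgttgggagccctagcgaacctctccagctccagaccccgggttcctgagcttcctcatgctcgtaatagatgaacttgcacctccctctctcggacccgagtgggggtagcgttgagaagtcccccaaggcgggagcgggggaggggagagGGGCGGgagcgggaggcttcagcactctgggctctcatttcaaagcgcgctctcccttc
Ret, chr4:153040557-153040806, minus strand: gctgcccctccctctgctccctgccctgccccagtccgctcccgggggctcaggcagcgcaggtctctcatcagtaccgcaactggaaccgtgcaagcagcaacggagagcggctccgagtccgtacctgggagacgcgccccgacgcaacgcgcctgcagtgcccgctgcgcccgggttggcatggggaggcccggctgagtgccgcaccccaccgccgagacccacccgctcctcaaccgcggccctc
Gdnf, chr2:58621077-58621326, plus strand: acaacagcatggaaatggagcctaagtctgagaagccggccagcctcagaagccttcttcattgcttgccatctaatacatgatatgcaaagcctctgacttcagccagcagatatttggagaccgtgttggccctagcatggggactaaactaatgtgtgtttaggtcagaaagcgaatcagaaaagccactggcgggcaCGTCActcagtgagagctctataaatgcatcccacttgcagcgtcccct
Bdnf, chr3:116637608-116637857, plus strand: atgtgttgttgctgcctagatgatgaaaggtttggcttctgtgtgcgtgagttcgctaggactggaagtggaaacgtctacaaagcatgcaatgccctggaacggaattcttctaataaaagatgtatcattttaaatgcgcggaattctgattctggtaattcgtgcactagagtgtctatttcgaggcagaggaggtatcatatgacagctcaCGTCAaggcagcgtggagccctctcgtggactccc

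The Gfra1 and Ret windows differed in composition, with 62% and 72.8% G or C against a median of 51.2% over all 33469 RefSeq windows of the same length. The Gdnf and Bdnf windows held 49.6% and 46.8%. Both strands were searched for 5 motifs. The GC box of Gfra1 is a common one, found in 30.5% of all windows, and the half-site of Gdnf and Bdnf occurred in 18.2%. The Gdnf window also held a TATA box (TATAAA), present in 12.9% of windows. The Ret window held none of the 5. The full cAMP response element (TGACGTCA, 1.59% of all windows, which contains the half-site) and the E-box (CACGTG, 5.59%) were in none of the 4 windows shown. A match describes letters only, and no binding was measured.

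Bdnf mRNA was close to absent from these striatal libraries. In total 13 reads were counted, in 6 of 12 rats. The non-addicted rats 9, 11, 12 and 13 had 5, 2, 0 and 1 reads, the MA12 rats 21, 31, 4N and 7N had 3, 1, 0 and 1, and the 4 MA24 rats had 0 each. Pooled over rats, this was 0.0971 CPM in non-addicted rats (95% Poisson interval 0.0419 to 0.191), 0.0587 CPM in MA12 rats (0.0191 to 0.137) and 0 in MA24 rats, where 0 reads allow up to 0.0358 CPM. The intervals and this limit, set at 3 counts over the group, cover counting error only. The ranges of the groups all shared 0, and neither difference from MA24 rats passed an exact two-sided permutation test over rats (p = 0.143 for both, and 0.629 between non-addicted and MA12 rats). Cortical excitatory neurons, a source of striatal BDNF, had 9 markers in the table, whose summed level was 4773 to 5817 CPM in MA24 rats, 3428 to 4788 CPM in MA12 rats and 3258 to 4871 CPM in non-addicted rats. The MA24 group, with no Bdnf read, thus did not have the lowest cortical markers, and their part in the Bdnf values was not tested. With a mean of 1.08 reads, Bdnf fell below the expression filter (a mean count above 4 in the rats compared), so it was not tested by edgeR, and a change was not detectable at this depth.

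Ntf3 was counted in 11 of 12 rats and was nearly as sparse. The MA12 rats 21, 31, 4N and 7N had 13, 10, 3 and 0 reads. The MA24 rats 9N, 14N, 15N and 16N had 4, 1, 11 and 1, and the non-addicted rats 9, 11, 12 and 13 had 1, 16, 3 and 1. Each group held rats with almost no reads beside at least 1 rat with 10 or more, and the groups overlapped. The log2 fold change (log2FC) had a standard error (SE) above 0.9 in each comparison, with -0.44 ± 0.91 for MA24 vs. MA12 (adjusted p = 0.805), -0.18 ± 0.92 for non-addicted vs. MA12 (adjusted p = 0.962) and 0.27 ± 0.96 for non-addicted vs. MA24 (adjusted p = 0.902). Leaving out a single rat turned the sign in every comparison. Of the 4 rats with 10 or more reads, 3 (MA12 rats 21 and 31 and non-addicted rat 11) were also the 3 with the highest hypothalamus and septum markers, whose part in these values was not tested.

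**Figure D1:**
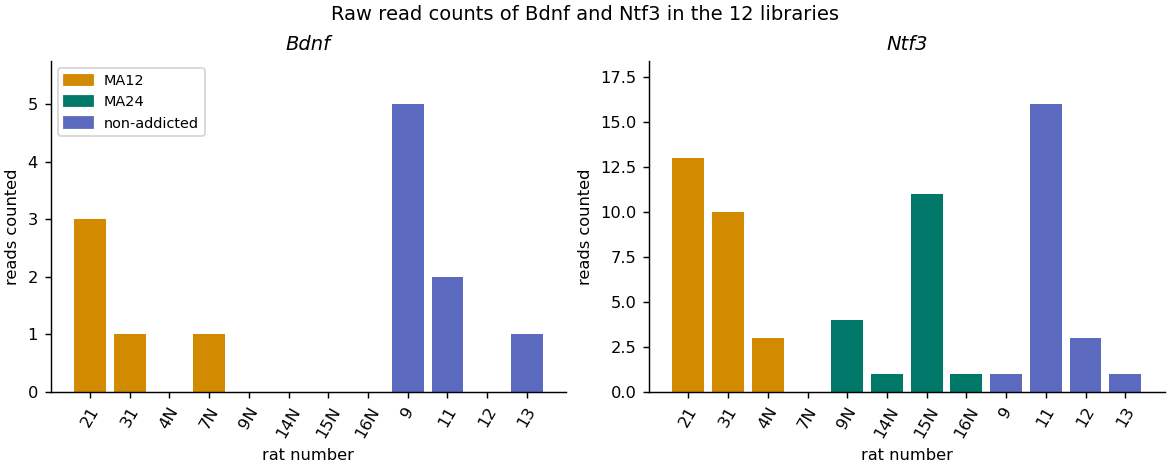
Raw read counts (y axis, from 0) of Bdnf and Ntf3 in each of the 12 libraries (x axis, rat number), coloured by group. The 4 MA24 bars are at 0 for Bdnf, where the highest rat has 5 reads, and Ntf3 reaches 16 reads in non-addicted rat 11.

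Gdnf, the third ligand, had 12 to 66 reads per rat, the lowest in MA12 rat 7N and the highest in MA24 rat 15N. On the scale of log2 CPM with a prior count of 2, its level in MA12 rats 21, 31, 4N and 7N was 0.99, 0.43, 0.50 and -0.37. In MA24 rats 9N, 14N, 15N and 16N it was 1.37, 0.51, 1.80 and 1.14, and in non-addicted rats 9, 11, 12 and 13 it was 1.12, 1.41, 0.00 and 1.19. Of the MA24 rats, 3 of 4 lay above every MA12 rat, and rat 14N lay among them. Gdnf was the only member with a positive log2FC in MA24 vs. MA12, at 0.85 ± 0.38 (SE), and it did not pass the threshold (adjusted p = 0.189; exact permutation p = 0.0571). The other contrasts gave 0.56 ± 0.40 for non-addicted vs. MA12 (adjusted p = 0.606) and -0.28 ± 0.37 for non-addicted vs. MA24 (adjusted p = 0.708), with overlapping groups in each.

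Gfra1, the co-receptor that captures GDNF at the membrane, was the single member to pass the threshold in any comparison (adjusted p below 0.05, and a fold change or FC no smaller than 1.5). Its counts in MA12 rats 21, 31, 4N and 7N were 566, 781, 492 and 273, or levels of 4.58, 5.03, 4.54 and 3.95 in log2 CPM. The MA24 rats 9N, 14N, 15N and 16N had 361, 251, 279 and 245 reads, or 3.97, 3.64, 3.85 and 3.70. Of the 4 MA12 rats, 3 stood above all MA24 rats, while the lowest MA12 rat, 7N, lay just under the highest MA24 rat. The MA24 values were also the tightest, with a mean of 3.79 ± 0.15 (SD, n = 4) against 4.53 ± 0.44 in MA12 rats. Gfra1 fell in MA24 relative to MA12, with a log2FC of -0.78 ± 0.17 (SE), 1.72-fold lower (adjusted p = 0.0153). The call was lost with all 3 groups in 1 fit (adjusted p = 0.0528), with only the rats numbered with N (0.227) and with the kind of number as a covariate (0.210). The exact permutation test gave p = 0.0571, where the smallest value that 4 against 4 rats allow is 0.0286. In bulk tissue, fewer cells that carry the transcript and less transcript per cell cannot be told apart.

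In non-addicted rats 9, 11, 12 and 13 Gfra1 had 316, 817, 526 and 356 reads, or levels of 4.05, 5.34, 4.44 and 4.22. Rat 11 was the highest of all 12 rats, and each of the 4 exceeded every MA24 rat. Non-addicted vs. MA24 gave a log2FC of 0.80 ± 0.21 (1.75-fold higher), as large as the difference between the abstinence times, with an exact permutation p of 0.0286 and an adjusted p of 0.0808 that missed the threshold. Groups that did not overlap were found for 10% of all genes tested in that comparison, and for 5.1% with non-addicted rats higher. Without rat 11, the log2FC was 0.45 (adjusted p = 0.247). Without rat 9 or rat 13 the gene passed, with an adjusted p of 0.0321 and 0.0193. The mean of the non-addicted rats (4.51 ± 0.57) lay beside that of the MA12 rats, with a log2FC of 0.02 ± 0.23 (adjusted p = 0.986). These neighbours in the order of mean levels did not differ beyond their spread.

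Ret, the kinase that Gfra1 recruits, did not pass the test in any comparison. The paper lists Ret in a network of genes called against its saline group, and no library here is labelled saline. Its level was 1.81, 1.33, 2.19 and 2.09 in MA12 rats 21, 31, 4N and 7N, 1.30, 1.33, 1.60 and 1.88 in MA24 rats 9N, 14N, 15N and 16N, and 0.48, 1.08, 1.53 and 1.75 in non-addicted rats 9, 11, 12 and 13. These values rest on 25 to 95 reads per rat. The group means fell in the order MA12 (1.86 ± 0.39), MA24 (1.53 ± 0.27) and non-addicted (1.21 ± 0.56), and neighbours in that order overlapped. The log2FC was -0.36 ± 0.28 for MA24 vs. MA12 (adjusted p = 0.444), -0.62 ± 0.31 for non-addicted vs. MA12 (adjusted p = 0.432) and -0.27 ± 0.31 for non-addicted vs. MA24 (adjusted p = 0.673). Across the 12 rats, Gfra1 and Ret had a Pearson r of -0.13, given as a description over libraries that share groups and depth. Rat 11, with the most Gfra1, was next to the lowest in Ret. The difference in log2 CPM between Gfra1 and Ret in the same rat was 2.67 ± 0.78 in MA12, 2.26 ± 0.35 in MA24 and 3.30 ± 0.78 in non-addicted rats. It did not differ beyond the spread between rats, with exact permutation p values of 0.343 between the abstinence times and 0.0571 between non-addicted and MA24 rats.

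The rats with much Gfra1 were also those with the most regional markers. Non-addicted rat 11 and MA12 rats 31 and 21, the 3 highest for the hypothalamus and septum list, were the 3 highest for Gfra1. Within that list Zic1 and Trpc4 carried the difference. Zic1 had 859, 808, 704 and 535 reads in rats 11, 21, 31 and 12 against 180 to 316 elsewhere, and Trpc4 had 471, 355, 292 and 286 against 51 to 111. Avp had 181 reads in rat 11 and 2 to 17 in the others, whereas Trh and Nkx2-1 had 177 to 271 and 146 to 257 reads with no such split. Gal ranged from 0 reads in rat 12 to 34 in rat 31. Within the MA24 group the summed list varied between 33.3 and 41.4 CPM. MA12 rat 4N, with a marker sum of 36.8 CPM, still had a Gfra1 level of 4.54, and MA12 rat 7N, at 36.2 CPM, had 3.95. Restricted to the rats numbered with N, the log2FC of Gfra1 for MA24 vs. MA12 was -0.47 (adjusted p = 0.227), and with the kind of number as a covariate it was -0.49 (adjusted p = 0.210). The part of the regional markers in the Gfra1 difference was not tested beyond these fits.

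**Figure D2:**
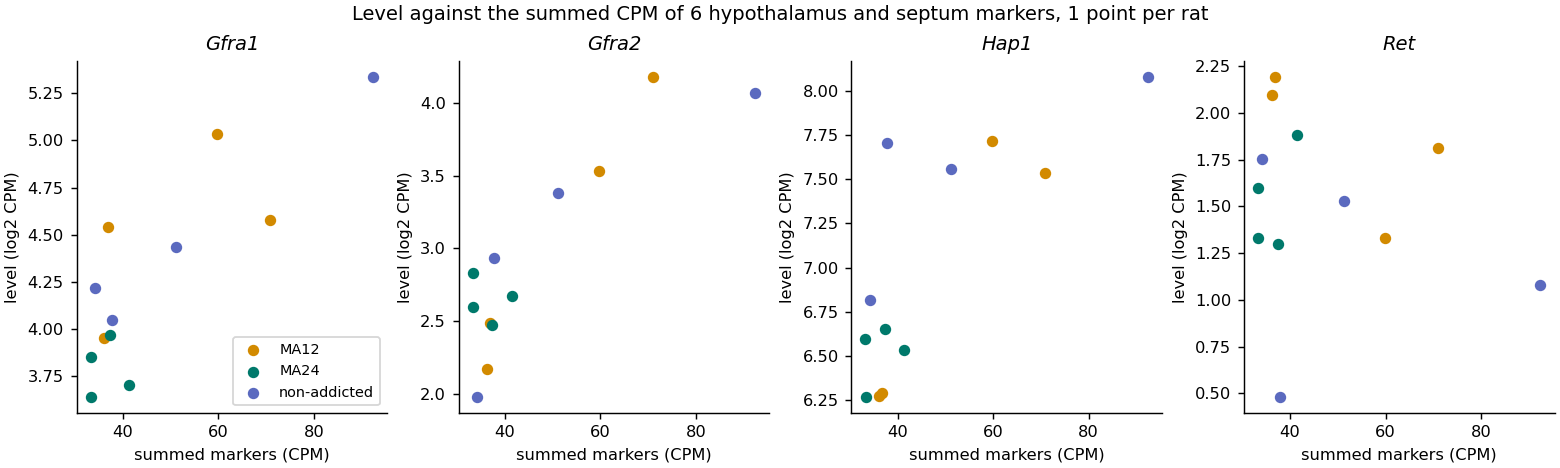
Level in log2 CPM (y axes) of Gfra1, Gfra2, Hap1 and Ret against the summed CPM of 6 hypothalamus and septum markers (x axes), 1 point per rat, coloured by group. The rats above 50 CPM (non-addicted 11 and 12, MA12 21 and 31) are high for Gfra1, Gfra2 and Hap1. For Ret they lie at 1.08 to 1.81, inside the range of 0.48 to 2.19 over all rats. The 4 MA24 rats sit at 33.3 to 41.4 CPM.

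TrkB, encoded by Ntrk2 and made both by neurons and, as a form without the kinase, by astrocytes, had the most reads of the members, 7690 to 13878 per rat. Gene-level counts do not separate its forms. Its level was 8.70, 9.07, 9.19 and 8.86 in MA12 rats 21, 31, 4N and 7N, 8.85, 8.66, 8.76 and 8.95 in MA24 rats 9N, 14N, 15N and 16N, and 8.65, 9.09, 9.15 and 9.03 in non-addicted rats 9, 11, 12 and 13. The groups overlapped throughout, over a range of 0.55 log2 units. The log2FC was -0.16 ± 0.11 for MA24 vs. MA12 (adjusted p = 0.402), 0.02 ± 0.12 for non-addicted vs. MA12 (adjusted p = 0.967) and 0.18 ± 0.11 for non-addicted vs. MA24 (adjusted p = 0.396). The lowest of all rats, 9, was in the same group as rat 12, the next to highest.

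TrkC, encoded by Ntrk3, was the member with the narrowest spread. Its level was 5.11, 5.17, 5.01 and 5.06 in MA12 rats 21, 31, 4N and 7N and 4.93, 4.69, 4.74 and 4.98 in MA24 rats 9N, 14N, 15N and 16N. Every MA24 rat lay below every MA12 rat, which gave the smallest exact permutation p possible (0.0286). Groups did not overlap for 15.6% of all genes tested in this comparison, and for 8.4% with MA24 lower. The log2FC was -0.25 ± 0.11, short of the fold threshold and with an adjusted p of 0.162. Non-addicted rats 9, 11, 12 and 13 had levels of 4.83, 5.08, 5.08 and 5.04, of which 3 fell within the MA12 range and rat 9 within that of MA24. Their contrasts gave -0.09 ± 0.10 with MA12 (adjusted p = 0.780) and 0.16 ± 0.11 with MA24 (adjusted p = 0.444).

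Ngfr, the p75 receptor, was the most variable of the members within the MA24 group. MA24 rats 9N, 14N, 15N and 16N had 79, 11, 31 and 6 reads, so that the highest and the lowest of all 12 rats were in 1 group (levels of 1.80 and -1.28). The MA12 rats 21, 31, 4N and 7N were close together, with 65, 52, 48 and 45 reads (levels of 1.18 or more). Non-addicted rats 9, 11, 12 and 13 had 16, 20, 31 and 44 reads (levels of -0.11, 0.11, 0.45 and 1.25), and only rat 13 reached the MA12 range. The group means were 1.33 ± 0.15 in MA12, 0.16 ± 1.39 in MA24 and 0.43 ± 0.60 in non-addicted rats. Non-addicted vs. MA12 gave a log2FC of -0.85 ± 0.36, the largest among the members in that comparison, with an adjusted p of 0.330 and an exact permutation p of 0.0857. MA24 vs. MA12 gave -0.71 ± 0.49 (adjusted p = 0.391), and non-addicted vs. MA24 gave -0.15 ± 0.56 (adjusted p = 0.911), which became 0.71 without MA24 rat 9N. Mural cell markers, 6 genes of the vessel wall, also differed between non-addicted and MA12 rats, with summed levels of 86.1 to 117 CPM and 134 to 203 CPM. Their part in the Ngfr values was not tested.

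**Figure D3:**
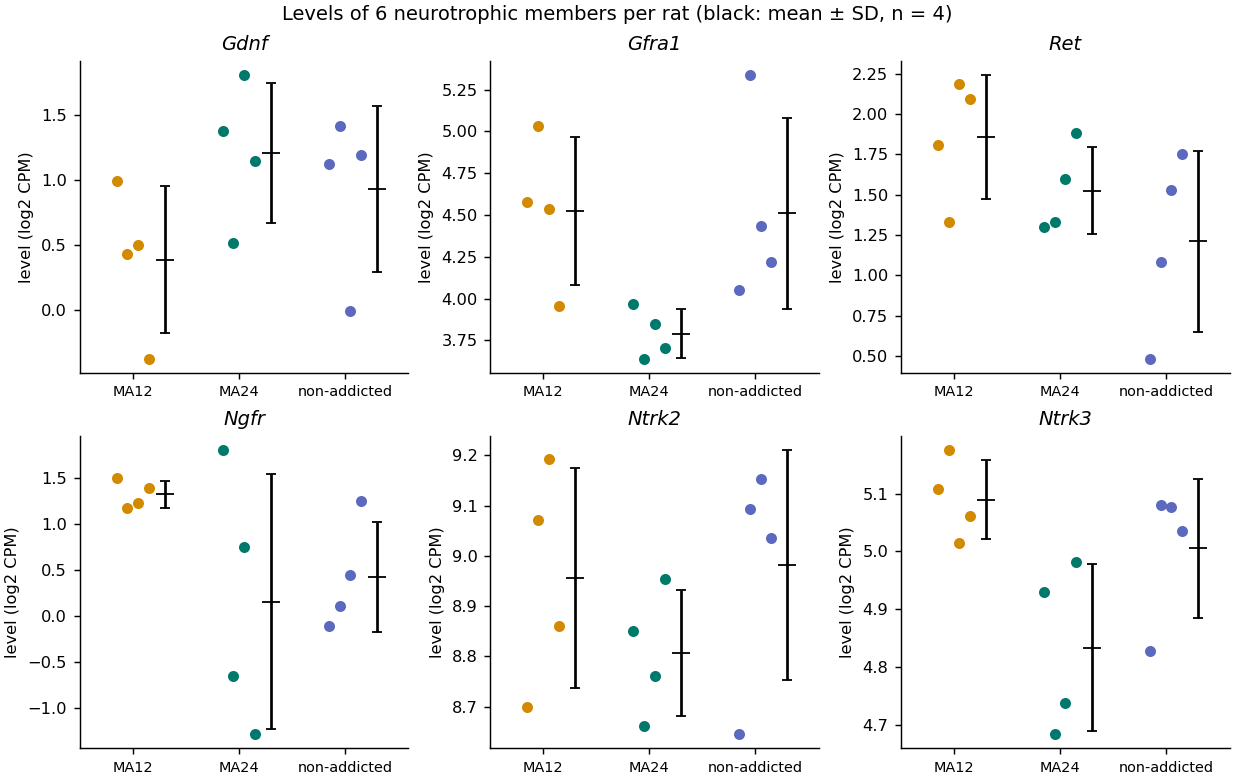
Level in log2 CPM (y axes, a separate range in each panel) of 6 members in the 3 groups (x axes), 1 point per rat, with the mean ± SD (n = 4) in black. Gfra1 in MA24 rats lies between 3.64 and 3.97, under all non-addicted rats and 3 of 4 MA12 rats, and Ngfr in MA24 rats spans -1.28 to 1.80.

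Read side by side, the 3 comparisons held few calls among the members. For MA24 vs. MA12, 1 of the 7 members tested passed, against 2.45% of 10754 genes (1.72% lower in MA24 and 0.735% higher), and that call, Gfra1, was lost in the 3 fits given above. In that comparison 6 of 7 had a log2FC below 0, with a median of -0.36 beside -0.02 over all genes, and 3 had an unadjusted p below 0.05 (Gfra1, Ntrk3 and Gdnf), where 23.6% of all genes did. For non-addicted vs. MA12, 0 of 7 passed with edgeR or DESeq2 (0.251% of 10758 genes did with edgeR), 1 (Ngfr) had an unadjusted p below 0.05, as did 12.3% of all genes, and the median log2FC was -0.09 beside -0.01. For non-addicted vs. MA24, 0 of 7 passed with edgeR (0.456% of 10744 genes did) and 1, Gfra1, with DESeq2 (adjusted p = 0.0192). There Gfra1 was also the only member with an unadjusted edgeR p below 0.05 (17.5% of all genes), and the median was 0.16 beside 0.00. The comparisons share their rats pairwise, so these counts are not independent of each other. In all, 24 exact permutation tests were made over the members, and their p values are unadjusted.

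**Figure D4:**
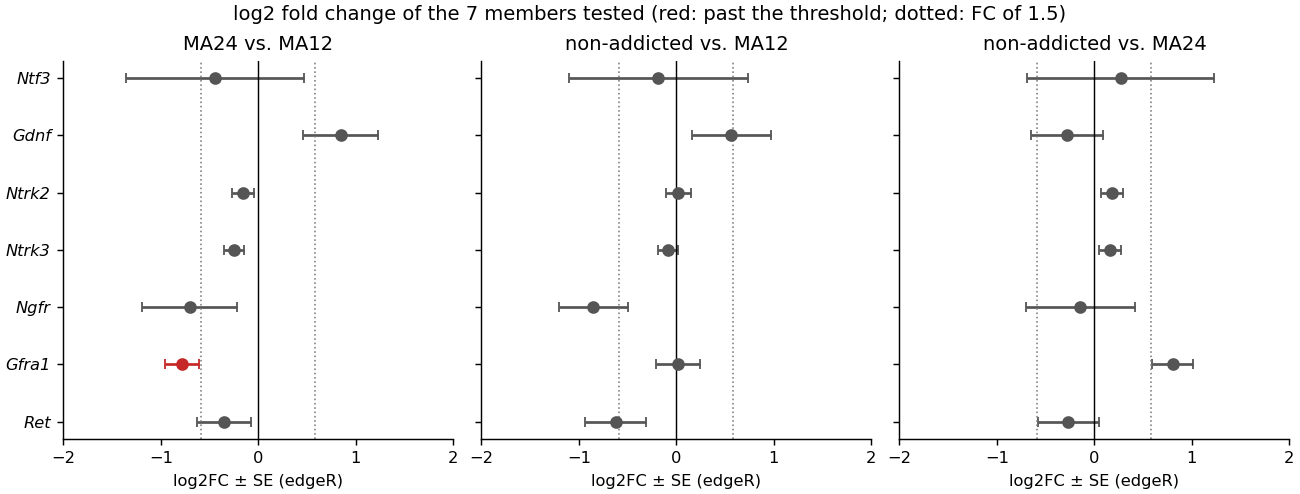
log2FC ± SE from edgeR (x axes) of the 7 members tested (y axis) in the 3 comparisons, with dotted lines at an FC of 1.5 and genes past the threshold in red. Gfra1 in MA24 vs. MA12, at -0.78 ± 0.17, is the only red point, and Ntf3 has the widest bars, with an SE of 0.91 to 0.96.

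Beyond the members, 74 further genes of the neurotrophin and GDNF pathways were listed, of which 73 were in the table. For MA24 vs. MA12, 0 of the 63 tested passed with edgeR (2.45% of all genes did) and 1 (Dok6) with DESeq2. A log2FC below 0 was found for 42 of 63, against 51.7% of all genes, with a median of -0.16 beside -0.02, and 25 had an unadjusted p below 0.05, beside 23.6% of all genes. Homer1 (log2FC -0.38 ± 0.10, adjusted p = 0.0350), a postsynaptic scaffold gene induced by neuronal activity, and Sos1 (-0.35, adjusted p = 0.0396), an exchange factor that relays the receptor signal, had an adjusted p below 0.05 but an FC under 1.5. For non-addicted vs. MA12, 0 of 61 passed with edgeR or DESeq2 and 6 had an unadjusted p below 0.05, beside 12.3% of all genes. For non-addicted vs. MA24, 1 of 59 passed (0.326% of all genes did with non-addicted rats higher) and 14 had an unadjusted p below 0.05, beside 17.5% of all genes.

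Among the 7 other ligands, Nrtn and Manf, the ones with a mean of at least 50 reads, had log2FC of 0.04 ± 0.25 and -0.13 ± 0.11 in MA24 vs. MA12 and overlapping groups. Neurturin (Nrtn) is the GDNF relative that binds Gfra2. Of the co-receptors, Gfra2 had 428, 275, 117 and 78 reads in MA12 rats 21, 31, 4N and 7N, 127, 121, 137 and 119 in MA24 rats 9N, 14N, 15N and 16N, and 145, 338, 252 and 74 in non-addicted rats 9, 11, 12 and 13. The 4 rats above 250 reads were the 4 with the highest hypothalamus and septum markers. Its log2FC was -0.68 ± 0.31 in MA24 vs. MA12 (adjusted p = 0.191). Gfra4, the co-receptor for persephin, differed the other way: MA24 rats, at 3.30 to 3.39, all lay above the MA12 rats, at 2.59 to 3.08, as was so for 7.16% of all genes (log2FC 0.54 ± 0.17, adjusted p = 0.0684).

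Hap1, whose product binds huntingtin and takes part in the axonal transport of BDNF vesicles, was the pathway gene that passed. It rose in non-addicted rats relative to MA24 rats, with a log2FC of 1.08 ± 0.18 (2.12-fold, adjusted p = 0.0241). Non-addicted rats 9, 11, 12 and 13 had 4001, 5485, 4590 and 2166 reads, or levels of 7.70, 8.08, 7.56 and 6.82. MA24 rats 9N, 14N, 15N and 16N had levels of 6.65, 6.27, 6.60 and 6.53, all below. Between these groups, 10% of all genes tested did not overlap, and 5.1% did not with non-addicted rats higher. The MA12 rats split into 21 and 31 (7.54 and 7.72) and 4N and 7N (6.29 and 6.27), along the kind of rat number and the level of regional markers. For MA24 vs. MA12 the Hap1 log2FC was -0.59, but 0.25 with only rats numbered with N and 0.24 with the kind as a covariate. For non-addicted vs. MA12 it was 0.49, but -0.01 with only rats numbered without N and -0.03 with the covariate. In non-addicted vs. MA24, group and kind of number cannot be told apart. Non-addicted rat 9 was high in Hap1 at a hypothalamus and septum sum of 37.8 CPM, inside the MA24 range. That rat ranked 3 of 12, at 71.3 CPM, for the summed level of 6 choroid plexus and ependyma markers. Ranks 1, 2, 4 and 5 of that list were non-addicted rats 11 and 12 and MA12 rats 31 and 21, the others high in Hap1. The part of these markers in the Hap1 values was not tested. The call was lost in 5 of the fits with other settings, with adjusted p of 0.0753 without the variance filter, 0.105 with all 3 groups in the fit, and 0.0634, 0.0507 and 0.0525 without non-addicted rat 12, MA24 rat 15N or MA24 rat 16N.

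Inside the cell, the docking and kinase genes with the largest log2FC in MA24 vs. MA12 were negative. Dok6, an adaptor that binds phosphorylated Ret, had -0.69 ± 0.22 (adjusted p = 0.0716), and every MA24 rat (2.16 to 3.71) lay below every MA12 rat (3.83 to 4.13). Traf6, an adaptor of p75, had -0.55 ± 0.24 (adjusted p = 0.168) with overlapping groups. Pik3cb, a catalytic subunit of PI3-kinase, had -0.44 ± 0.14 (adjusted p = 0.0729) with groups that did not overlap. Pcsk5, a protease that cleaves proneurotrophins, differed the other way, at 0.64 ± 0.24 (adjusted p = 0.113), with MA24 rats at 2.23 to 2.57 and MA12 rats at 1.28 to 2.08. None of these passed the threshold. Groups did not overlap for 15.6% of all genes tested in this comparison, for 8.4% with MA24 lower and for 7.16% with MA24 higher.

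Of the 12 genes that neurotrophin signalling is known to induce, 11 had a log2FC below 0 in MA24 vs. MA12 (median -0.25), where 51.7% of all genes did. In non-addicted vs. MA12, 10 of the 11 tested did (median -0.26), where 52.3% of all genes did. None passed with edgeR in either comparison, beside 2.45% and 0.251% of all genes. An unadjusted edgeR p below 0.05 was found for 3 in each, beside 23.6% of all genes in MA24 vs. MA12 and 12.3% in non-addicted vs. MA12. Fos, the immediate early gene, overlapped between the groups. Its level in MA12 rats 21, 31, 4N and 7N was 3.09, 2.83, 2.83 and 4.67, and in MA24 rats 9N, 14N, 15N and 16N it was 2.03, 3.61, 3.08 and 1.61 (log2FC -0.80 ± 0.40, adjusted p = 0.237). In non-addicted vs. MA24, 6 of the 12 lay on each side of 0, beside 49.7% of all genes below it.

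**Figure D5:**
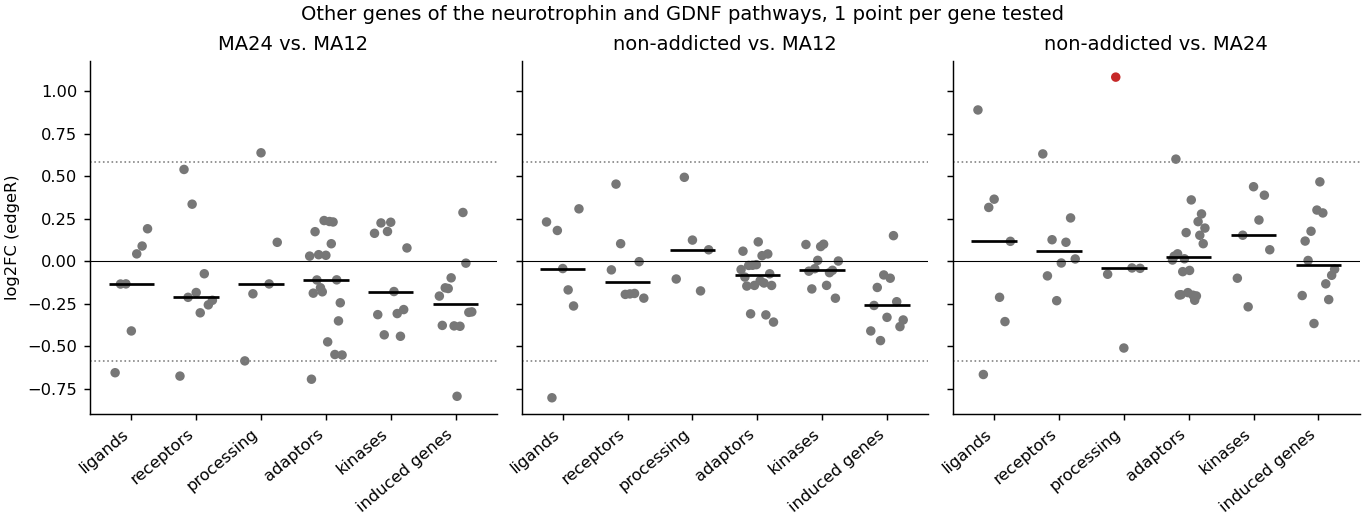
log2FC from edgeR (y axis) of the other pathway genes by role (x axes) in the 3 comparisons, 1 point per gene tested, with black lines at the median of each role, dotted lines at an FC of 1.5 and genes past the threshold in red. Hap1 in non-addicted vs. MA24, at 1.08, is the only red point, and the induced genes have a median of -0.25 and -0.26 in the comparisons with MA12.

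Over the 12 rats, the highest Pearson r between members with a mean of at least 10 reads was 0.71, for Ntrk3 and Gfra1, followed by 0.65 for Ntrk2 and Ntrk3 and 0.57 for Ntrk2 and Gfra1. With each group's mean removed, these were 0.47, 0.61 and 0.44. Apart from Gdnf, Gfra1 and Ret were the only pair with a negative r. Gdnf had a negative r with each of the other 5, between -0.03 with Gfra1 and -0.36 with Ntrk3, but with the group means removed it was positive with Gfra1 (0.43), Ngfr (0.27) and Ntrk3 (0.038). These are descriptions over libraries that share groups and depth.

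The genes whose levels were most like those of each member were sought among at least 10764 genes with a mean of at least 50 reads, by Pearson r over the 12 rats. For Gfra1 they were RGD1565616 (0.92), Ntn4 (0.92) and Atp2b4 (0.91), and for Ret they were Cacna1c (0.92), Adap2 (0.88) and Fam131b (0.87). For Gdnf they included Alkbh2 (0.84) and Fance (0.82). Ntrk2 was most like Snx27 (0.91), Wdfy3 (0.90) and Diaph1 (0.90), Ntrk3 most like Dgcr2 (0.96), Creb1 (0.95) and Cacna1e (0.95), and Ngfr most like Esrrg (0.95), Nfx1 (0.93) and Pde1c (0.91). The 6 members thus had no gene in common among their nearest 3. When levels were centred on the group mean, at most 1 of the 3 nearest genes of a member was still among its nearest 3.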

How the data were processed

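Poly-A RNA of whole striatum was sequenced, 1 rat per library, so p values measure the spread between rats. The deposited values are raw read counts per gene, made by the authors from reads trimmed with cutadapt 1.18 and aligned with STAR 2.7.0e to the rat build rn6. The submitters' processing notes name both featureCounts and HTSeq 0.12.4, and the library kit does not mark strand, so reads of overlapping genes cannot be told apart. Groups came from the labels. For each comparison, genes with a mean count above 4 in the rats of both groups and outside the lowest 15% of variance in log2 CPM were kept, TMM-normalised, and tested with the quasi-likelihood test of edgeR 4.0.16 in R 4.3.3, with Benjamini-Hochberg adjustment over all genes kept. Calls needed both an adjusted p below 0.05 and a change of 1.5-fold or more. Levels are log2 CPM with TMM over the 12 libraries and a prior count of 2. They give no order between genes, since transcript length was not used. Exact two-sided permutation tests over the 70 splits of 8 rats used these levels. Within-group differences exceeded counting noise for every pair of libraries (chi-square per degree of freedom of 9.96 to 28.9), so each rat counted once. DESeq2 1.42.0 and the other settings of the closing section were alternatives, and the fits were tested on simulated data. Genes named beyond the members were the pathway genes past the threshold, the 2 of each role with the largest absolute log2FC in MA24 vs. MA12 and a mean of at least 50 reads, and the 3 most like each member. Some genes that this rule names are not reported here. Sos1, Arc, Vgf and the single marker genes were named after their values were seen. The members and lists were chosen with earlier results of these data known.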

Additional observations from a re-analysis of the deposited data

How the results depend on the processing

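The Gfra1 call in MA24 vs. MA12 kept its direction in all 15 alternatives (log2FC -0.93 to -0.47, adjusted p 0.00145 to 0.227) and its side of the threshold in 12, including each fit without 1 rat. The members past the threshold there became 0 with all 3 groups in the fit (adjusted p = 0.0528 for Gfra1), 0 with only rats numbered with N and 0 with the kind of number as a covariate; the cause was not tested. For non-addicted vs. MA24 the count was 1 (Gfra1) with DESeq2 and 1 with no filter on low counts, and 0 to 1 when 1 rat was left out. Over all genes, MA24 vs. MA12 gave 116 calls with only rats numbered with N, 47 with the covariate and 129 (without MA24 rat 14N) to 436 (without MA24 rat 9N) when 1 rat was left out. Non-addicted vs. MA12 gave 75 with DESeq2, 59 with no filter on low counts, 5 with no variance filter, 16 with all 3 groups, 10 with the covariate, 63 with only rats numbered without N, and 8 (without non-addicted rat 12) to 93 (without MA12 rat 7N). Leaving out together the 3 rats with the most hypothalamus and septum markers, a setting chosen after seeing the data, gave 171. It leaves 2 MA12 rats, both numbered with N, against non-addicted rats numbered without it, so group and kind of number cannot be told apart there or in the results of this setting given next. Non-addicted vs. MA24 gave 126 with DESeq2, 124 with no filter on low counts, 2 with all 3 groups, 0 with no variance filter (edgeR, 2229 at an unadjusted p below 0.05), and 0 (without non-addicted rat 12, 1211 at an unadjusted p below 0.05) to 187 (without non-addicted rat 13).

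Of the pathway genes, MA24 vs. MA12 gave 1 (Dok6) with DESeq2, 1 (Dok6) with no filter on low counts and 0 to 3 without 1 rat, the 3 being Gfra2, Gfra4 and Hap1 without MA12 rat 7N. In non-addicted vs. MA12 there were 4 with the 3 marker-rich rats left out (Arc, Fos and Vgf lower, Hap1 higher). In non-addicted vs. MA24 there were 0 with no variance filter, 0 with all 3 groups, and 0 to 2 without 1 rat, Gfra2 joining Hap1 without non-addicted rat 13.

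The signs that turned were of log2FC that did not pass. Ntf3 in MA24 vs. MA12 was 1.40 with the covariate and -1.54 to 0.095 without 1 rat, and in non-addicted vs. MA12 and vs. MA24 it was -1.79 to 0.35 and -0.051 to 0.59 without 1 rat. In non-addicted vs. MA12, Gfra1 was -0.22 with the covariate, -0.21 with only rats numbered without N, -0.032 with the 3 marker-rich rats left out and -0.33 to 0.21 without 1 rat. Ntrk2 there was -0.075 with the 3 rats left out and -0.058 to 0.13 without 1 rat. Ngfr in non-addicted vs. MA24 was -0.52 to 0.71 without 1 rat. RLE size factors changed no call of a member. No paired analysis was possible because the rat numbers name different animals and no group shares a number with another. Bdnf and Ntf3 were limited by depth, with at most 5 and 16 reads per rat.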
